A study of Bos taurus with 16 samples.

Results

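Cow blood stimulated outside the body with lipopolysaccharide (LPS), the endotoxin of the outer membrane of Gram-negative bacteria, was compared with unstimulated blood of the same probiotic arm. The members are 8 of the 16 arrays of the series, chosen by their titles: 4 arrays of the LPS group and 4 of the probiotic group at day 60. The 16 arrays fall into 4 groups of 4. Gene expression was measured as the Cy3 fluorescence of 60-base oligonucleotide probes on bovine Agilent arrays. Both groups here are whole blood of lactating female Holstein Friesian cows that had received a commercial oral supplement of yeast culture and bacterial fermentation products for 60 days, so the supplement is common to them and is not what the comparison tests. Blood was drawn into ACD tubes and incubated for 30 min at 37 °C in 5% CO2, and the LPS group received LPS at 100 ng/ml. Ages and genotypes are not given. The design text calls the LPS samples a positive control. The labels do not say whether both pools hold blood of the same cows, so a difference between cows cannot be told apart from that of LPS. Each arm held 5 cows, and equal amounts of RNA were pooled within a group before labelling. The 4 arrays of a group are therefore repeat hybridisations of 1 pool, and the p-values measure the spread between arrays, not between cows. The 2 groups were hybridised on different slides, and a slide effect cannot be told apart from that of LPS.

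Blood monocytes and neutrophils sense LPS through CD14, LY96 and the receptor TLR4, which signals through the adaptor MYD88 to the transcription factor NF-kB and to the MAP kinases. The first genes to respond in many cell types are the immediate early genes, such as FOS, NR4A2 and DUSP1, which need no new protein to be transcribed and whose messages are short-lived. Chemokines of the GRO family, including CXCL2 and GRO1, which draw neutrophils, and cytokines such as IL1A, IL1B and TNF follow through NF-kB, together with its own inhibitor NFKBIA.

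The arrays were unevenly bright, and this bears on every value below. On each array the first 14 rows of spots had a 75th percentile of net signal (background-subtracted fluorescence, in scanner units) that was 35.2 to 60.8 times that of the dimmest band of 14 rows on 7 arrays, and 6.12 times on LPS replicate 4. LPS replicate 4 stood apart throughout. Its net signal had a 75th percentile over the 5338 probes well above background on all 8 arrays of 363 units, against 2225 to 3510 on the others, and its median Spearman correlation with the other LPS arrays was 0.479 against 0.886 to 0.979 for the other 7 arrays within their own group. The share of non-control spots well above background was 32.9 ± 4.70% (SD, n = 4) without and 34.4 ± 8.53% (SD, n = 4) with LPS (difference 1.45 percentage points, exact permutation test, two-sided p = 0.771, where the smallest p that 4 against 4 allows is 0.0286). Leukocyte and red cell markers were present: 18 of 25 neutrophil, 18 of 27 T cell, 11 of 20 B cell, 6 of 17 monocyte and 7 of 22 erythroid markers on the array were well above background on all 7 arrays other than LPS replicate 4.

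**Figure D1:**
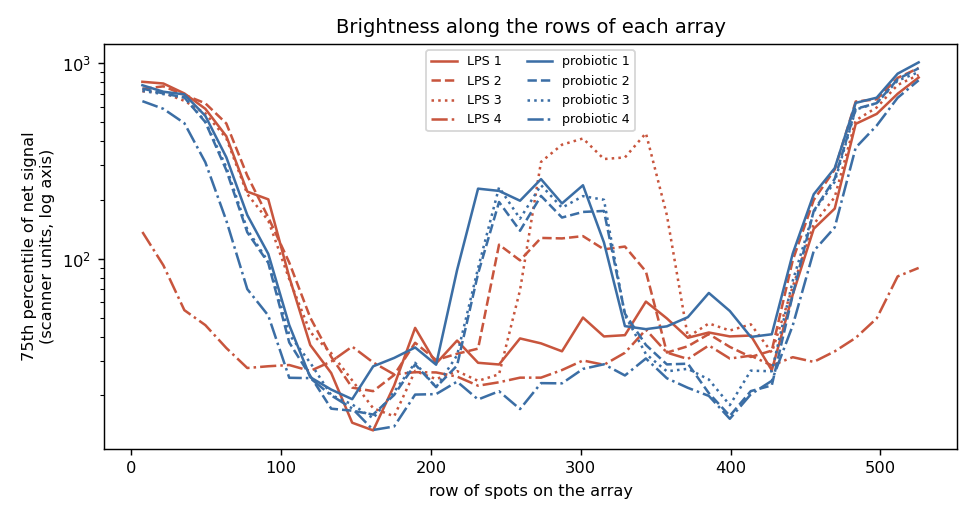
Net signal (75th percentile in bands of 14 rows, log axis, scanner units) is plotted against the row of spots for the 4 probiotic (blue) and 4 LPS (red) arrays. All arrays but LPS replicate 4 are bright at both ends, the bright patch near the middle differs from array to array, and LPS replicate 4 is dim along its length.

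Values were therefore read in 2 ways. The first used all 8 arrays and every probe that was well above background on all 4 arrays of a group (8721 genes). The second used the 7 arrays other than LPS replicate 4 and the 12487 of 43803 non-control spots (28.5%) whose 15 by 15 neighbourhood had a 75th percentile of at least 200 units on every one of the 7 (6352 genes), called the evenly bright area here. Genes with a limma p under 0.05 after Benjamini-Hochberg adjustment are said to pass, and those that also differ by at least 2-fold are said to be called. Differences are LPS minus probiotic on the log2 scale ± SE, and net signals are those of single arrays in the order of the replicates. Net signals are not compared between genes, since probes differ in brightness.

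In the evenly bright area, CXCL2 was 7.24-fold higher with LPS, FOXR2 5.35-fold, H1-3 4.53-fold, CCL3 2.68-fold, FOS 2.58-fold and RGS1 2.34-fold, and GRO1, whose spot lay just outside that area, was called on all 8 arrays at 3.90-fold. Of the 6352 genes, 25 were called (0.394%), 20 higher (0.315%) and 5 lower (0.0787%). Of the 20, 1 was on the immediate early list and 3 on the list of cytokines and chemokines. By adjusted p alone 1023 genes passed (16.1%), 457 higher (7.19%) and 566 lower (8.91%), nearly all by less than 2-fold. The groups did not overlap in 2159 genes (34%), and the median over all genes was -0.02. The number passing was not stable to single arrays: it was 423 without probiotic replicate 1, 403 without replicate 2, 638 without replicate 3, 1661 without replicate 4, 340 without LPS replicate 2 and 320 without LPS replicate 3. The number called stayed between 19 and 29 when any 1 of the 7 arrays was left out. Where a probe had to be well above background on all 7 arrays, 17 of 5897 genes were called (0.288%), 12 higher and 5 lower. CXCL2, CCL3, IL1A and H1-3 were not among them. Probes of the 457 rising genes had a median GC content of 35.0% against 43.3% over all genes tested and 45.0% in the 566 falling genes. When each array was centred within bands of probe GC content, 34 genes were called and 779 passed.

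CXCL2 gave the largest change in the evenly bright area. Its probe read 57, 58, 55 and 33 units on the probiotic arrays and 382, 383 and 373 on LPS replicates 1 to 3, but -18 on LPS replicate 4. The groups did not overlap without LPS replicate 4, which was below both (2.86 ± 0.12, limma adjusted p = 5.9e-05). The CXCL2 probe nearly repeats the probe of CXCL3, another member of the same chemokine family, which lay in a dim place (75th percentile of its neighbourhood 10.7 units at the lowest) and read -12 to -1 units on the 7 arrays. The best ungapped 30 bases of the 2 probes are identical at 28 positions, and signal from either transcript cannot be told apart at this probe. Those 30 bases are shown because they limit what the CXCL2 value names, with the bases that differ in capitals.
CXCL2: cttgtaaggcaCaatgccttgtttCatgtt
CXCL3: cttgtaaggcaTaatgccttgtttAatgtt
A second CXCL2 probe, in a dim place, read -10 to 10 units on 6 of the 7 arrays and 329 on LPS replicate 3.

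GRO1, a bovine neutrophil-attracting chemokine of the same family, moved alike through a probe of its own, whose best 30 bases match those of the CXCL2 probe at only 15 positions. It read 618, 539, 541 and 450 units on the probiotic arrays, 2652, 2714 and 2847 on LPS replicates 1 to 3 and 153 on LPS replicate 4. The net signal rose on 3 LPS arrays and was below every probiotic array on the fourth. After scaling to the brightness of each array, LPS replicate 4 was the lowest LPS array yet above all 4 probiotic arrays. GRO1 was called on all 8 arrays (1.96 ± 0.31, limma adjusted p = 0.034), without LPS replicate 4 (2.20 ± 0.12, adjusted p = 6.0e-04) and in the wider area with a limit of 100 units (2.26 ± 0.07, adjusted p = 2.5e-05). The lowest of its 7 neighbourhood values, 188 units on probiotic replicate 4, was under the limit of 200. The 8-array call rested on every array but LPS replicate 4: leaving out any other array gave a limma adjusted p of 0.065 to 0.17, with differences of 1.87 to 2.05.

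IL1A encodes an alarm cytokine of the interleukin 1 family. Its probe read 42, 32, 37 and 30 units on the probiotic arrays, none of them well above background, and 89, 102 and 94 on LPS replicates 1 to 3, with -12 on LPS replicate 4. It was at least 1.96-fold higher with LPS, since the probiotic level is only a bound (fitted difference 1.19 ± 0.05, limma adjusted p = 5.9e-05). Most probiotic values sat at the floor set for low signals (-5.39, log2). The SE and p therefore do not measure the spread between probiotic arrays. The call rests on the fitted difference, as the bound is under 2-fold. IL1B, the main secreted interleukin 1, read 2888, 2720, 2681 and 1820 units against 2700, 2933, 2585 and 46, so that LPS replicates 1 to 3 lay within or next to the probiotic range. It did not pass (0.06 ± 0.09, limma adjusted p = 0.69). CCL3, a chemokine for monocytes and lymphocytes, read 93, 103, 95 and 34 units against 189, 250, 198 and 24 (1.42 ± 0.31, limma adjusted p = 0.026). The low probiotic replicate 4 widened its spread, and another CCL3 probe in the evenly bright area read between -9 and 1 units on all 7 arrays and gave no level. The remaining CCL3 probe, in a dim place, read 148, 158, 170 and 80.9 units against 104, 154, 367 and 219, with overlap, and without LPS replicate 4 it gave 0.28 (adjusted p = 0.79). CCL3 lost its call without probiotic replicate 1 (limma adjusted p = 0.055), LPS replicate 1 (0.058), LPS replicate 2 (0.092) or LPS replicate 3 (0.078). Of the 35 inflammatory cytokines and chemokines on the array, 8 could be tested in the evenly bright area: CXCL2, CCL3 and IL1A rose, none fell, and IL1B, CXCL10, TNFSF15, IL1RN and NOS2 did not pass. Their median was 0.03 against -0.02 over all genes. The 3 that rose were well above background on all 3 LPS arrays but on only 3 of 4 probiotic arrays for CXCL2 and CCL3 and on none for IL1A, so they entered through the group where they are high and their count is not support for the list. Of the 5 members well above background on all 7 arrays, none rose or fell (limma).

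**Figure D2:**
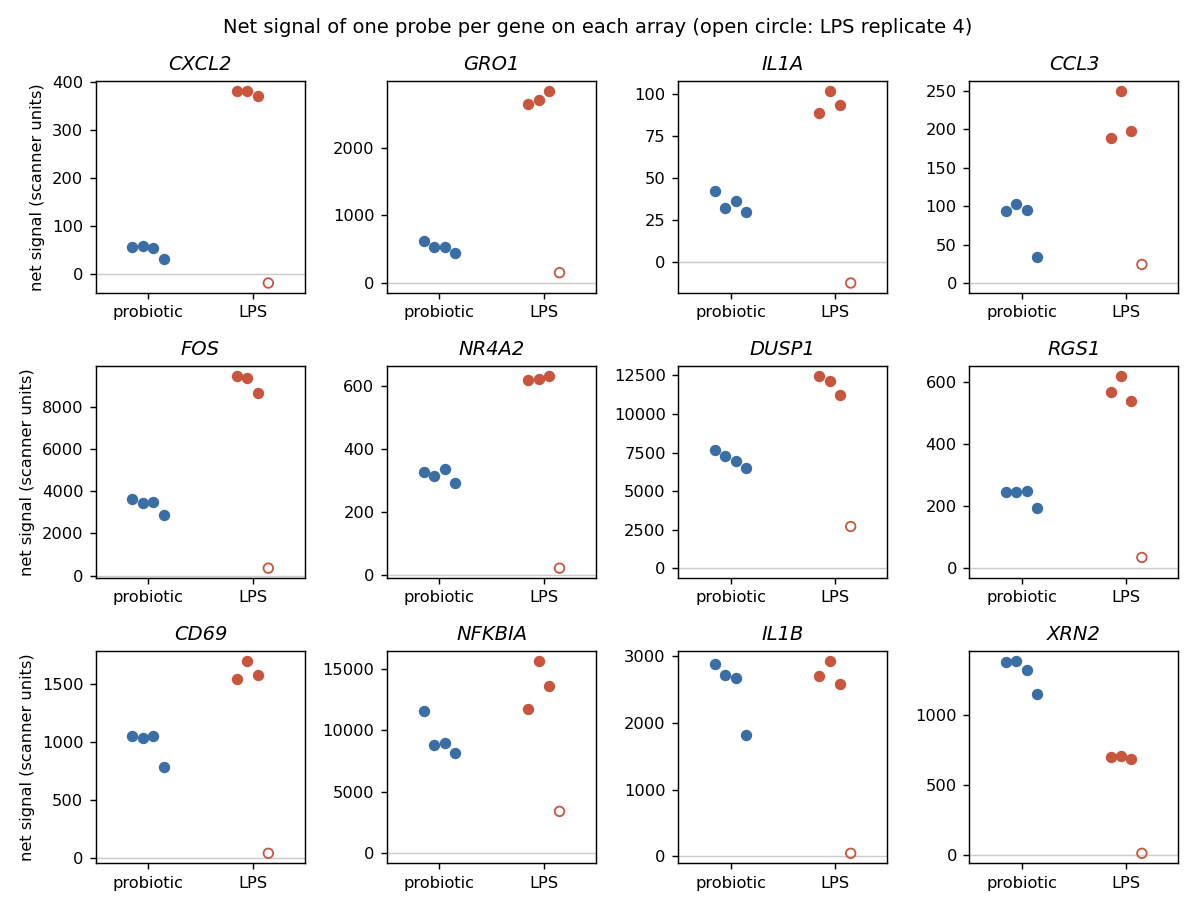
Net signal (scanner units, separate linear axes) is plotted for 1 probe of each of 12 genes on every array, probiotic in blue and LPS in red, with LPS replicate 4 as an open circle. For CXCL2, GRO1, IL1A, CCL3, FOS, NR4A2, DUSP1, RGS1 and CD69 the 3 filled LPS points lie above all probiotic points, for IL1B they overlap, and LPS replicate 4 is the lowest LPS point in every panel.

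Immediate early genes were the list with the largest share of members passing. Of 34 on the array, 10 were tested in the evenly bright area, 7 rose and 1 fell, against 7.19% and 8.91% over all genes. Their median was 0.55, and all 10 were tested also where a probe had to be well above background on all 7 arrays, with the same counts. With normexp background correction 1 rose and none fell, and under spike-in scaling 1 rose and 4 fell (median -0.04 against -0.60 over all genes). FOS, the transcription factor subunit of AP-1, read 3647, 3450, 3485 and 2871 units on the probiotic arrays against 9454, 9334, 8631 and 359 with LPS. LPS replicates 1 to 3 were far above every probiotic array and LPS replicate 4 far below (1.37 ± 0.05, limma adjusted p = 5.9e-05). NR4A2, an orphan nuclear receptor, read 326, 314, 336 and 291 against 619, 624, 633 and 20 units (0.91 ± 0.06, limma adjusted p = 9.5e-04). PPP1R15A, which lets translation restart after stress, read 164, 165, 165 and 150 against 236, 322, 326 and -14 units (0.78 ± 0.11, limma adjusted p = 0.0089). In both genes the probiotic values lay close together and the 3 brighter LPS arrays lay above them.

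DUSP1, the phosphatase that switches MAP kinases off, was among the few genes with a usable value on LPS replicate 4. It read 7688, 7249, 6931 and 6515 against 12480, 12156, 11205 and 2703 units, and passed in the evenly bright area (0.67 ± 0.07, limma adjusted p = 0.0050). With all 8 arrays, over spots whose neighbourhood reached 100 units on all 8 and with each spot divided by that neighbourhood, the DUSP1 difference was 0.90 (limma adjusted p = 0.0051, 14 of 1620 genes passing). Divided by its neighbourhood, LPS replicate 4 also lay above every probiotic array. Of 4 immediate early genes tested in that fit only 1 passed (median 0.26 against 0.05 over all genes). Of 2 cytokines and chemokines none passed (median -0.15). IER2, ZFP36L2 and KLF6 rose by 0.72 ± 0.18, 0.43 ± 0.06 and 0.24 ± 0.05, and a second ZFP36L2 probe in the area gave 0.38. A brighter IER2 probe, the one used on all 8 arrays, overlapped between groups (-6.22 to 1.20 on the probiotic arrays and -1.35 to 2.19 with LPS, log2). FOSB, a relative of FOS, fell (-0.51 ± 0.13, limma adjusted p = 0.042), from 1146, 965, 898 and 608 units to 585, 713 and 667, so that the lowest probiotic array lay within the LPS range before scaling. ZFP36L1 (-0.07 ± 0.14) and MCL1 (-0.12 ± 0.12) did not pass. Leaving out 1 of the 7 arrays at a time left 5 to 7 of these genes passing upward, and FOSB no longer passed in 6 of the 7 cases. IER2 passed in 2 of the 7 cases and KLF6 in 3.

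The probes of several rising genes lie in stretches that hold ATTTA, the core of the AU-rich element of short-lived messages. They are shown 5′ to 3′ because this is the sequence each value was read from, with each ATTTA in capitals, as deposited with the series.
FOS: gaacttgaatgaaaaATTTAagcattgttt
NR4A2: ggcaaaggcttgtaaATTTAtccaatgcag
PPP1R15A: ttttgtgttaactATTTATTTAtttgaatg
GRO1: gttaatgtagggaatgtatgtatacATTTA
ATTTA was found in the 60 bases of 489 of the 6352 probes tested in the evenly bright area (7.70%), in 55 of the 457 probes of passing rises (12%) and in 28 of the 566 of passing falls (4.95%). The reverse complement TAAAT was found in 9.86%, 19.7% and 6.01% of the same sets, so both orders of letters were commoner among the rises, whose probes were also poorer in GC. Among the called genes 1 of 20 higher and 1 of 5 lower held ATTTA, and so did 4 of 10 immediate early probes tested and 3 of the 7 that rose.

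RGS1, CD69, THBD and RHOB are on none of the gene lists and were picked after their values were seen. RGS1, which limits chemokine receptor signalling in leukocytes, read 244, 246, 249 and 195 units on the probiotic arrays against 565, 618, 538 and 34 with LPS (1.22 ± 0.05, limma adjusted p = 6.4e-05). CD69, an early activation marker of lymphocytes, read 1053, 1032, 1048 and 788 against 1543, 1696, 1573 and 44 units (0.64 ± 0.05, limma adjusted p = 0.0026). In both genes the 3 brighter LPS arrays lay above all probiotic arrays. The anticoagulant receptor THBD rose by 0.52 ± 0.06 and the small GTPase RHOB by 0.50 ± 0.07, while a second RHOB probe in the area gave 0.09.

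**Figure D3:**
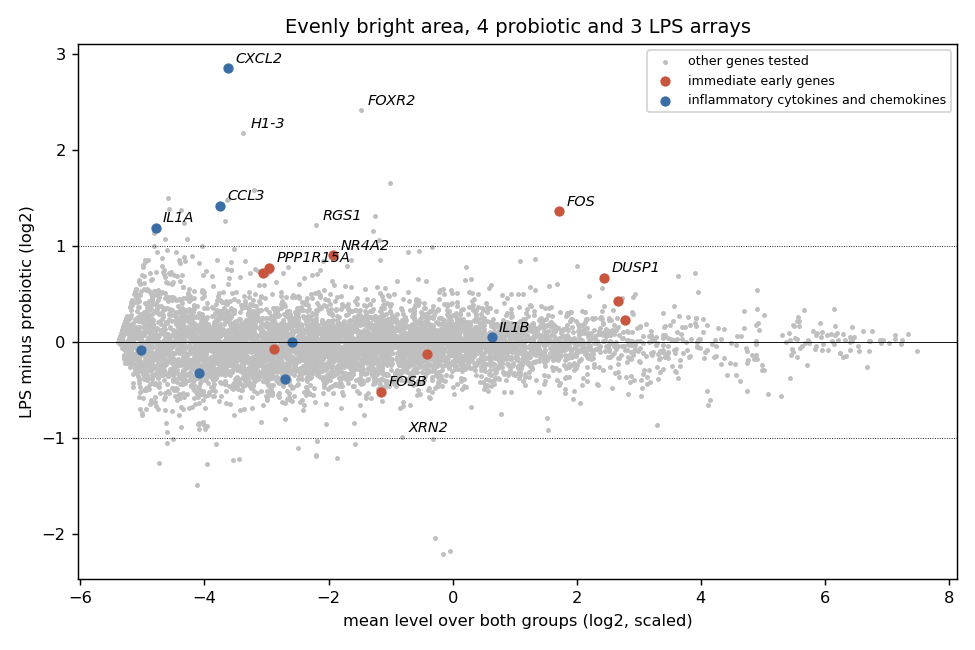
The difference LPS minus probiotic (log2) is plotted against the mean level for the 6352 genes of the evenly bright area, with the 10 tested immediate early genes in red and the 8 cytokines and chemokines in blue; dotted lines mark 2-fold. Most genes lie between the dotted lines, CXCL2 is the highest at 2.86, and FOS lies at 1.37.

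In the evenly bright area no signalling gene of the LPS pathway was called. On all 8 arrays the kinases MAP2K3 and MAPK14 were, as given below. NFKBIA, the NF-kB inhibitor that NF-kB itself induces, read 11593, 8829, 8938 and 8160 units against 11681, 15621, 13599 and 3404, so that probiotic replicate 1 came close to LPS replicate 1 before scaling. It passed (0.46 ± 0.11, limma adjusted p = 0.034), though not without probiotic replicate 2 (adjusted p = 0.088), probiotic replicate 3 (0.081), LPS replicate 2 (0.12) or LPS replicate 3 (0.11), and it was the only one of 15 tested NF-kB subunits and feedback inhibitors to rise. NFKB2 (-0.34 ± 0.07) and NFKBIB (-0.45 ± 0.10) fell, 12 did not pass, RELA (0.00 ± 0.06) and SOCS3, with the most negative value (-0.90, adjusted p = 0.16), among them, and the median was 0.00. When 1 of the 7 arrays was left out at a time, NFKB2 passed in 3 cases and NFKBIB in 2. Of 21 tested LPS sensing and Toll-like receptor genes none rose and 2 fell, MYD88 (-0.44 ± 0.05, limma adjusted p = 0.0063) and the receptor TLR1 (-0.33 ± 0.06), and the median was 0.09. The MYD88 probe went from 214, 205, 196 and 179 to 154, 162 and 148 units, without overlap. A brighter MYD88 probe, in a dim place, read 8299 to 9590 units on probiotic replicates 1 to 3 and 12194 to 15829 on LPS replicates 1 to 3, the opposite order. The receptor TLR4 (0.12 ± 0.11) and its co-receptor CD14 (0.10 ± 0.13) did not pass. In the MAP kinase pathway 1 of 13 passed, MAP3K5 upward (0.43 ± 0.07). The shares passing were 20% of the NF-kB list, 9.52% of the sensing list and 7.69% of the MAP kinase list. These were near or under the 16.1% of all genes (7.19% higher and 8.91% lower).

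Of 13 interferon-stimulated genes 2 passed, a share near the 16.1% of all genes: MX1, an antiviral GTPase, fell (-0.45 ± 0.05) and OAS1Y rose (0.23 ± 0.05). Among 15 neutrophil markers 3 fell, the leukotriene enzyme ALOX5 (-0.52 ± 0.11), the growth factor receptor CSF3R (-0.31 ± 0.05) and TREM1 (-0.21 ± 0.05), and the median was 0.00. Over all genes 7.19% rose and 8.91% fell. Of 4 monocyte markers SIRPA fell (-0.29 ± 0.06) and CX3CR1 rose (0.23 ± 0.06), while a second CX3CR1 probe in the area gave 0.04. Of 14 T cell markers, TRAT1 (0.46 ± 0.07) and CD8A (0.37 ± 0.07) rose, a share near that of all genes passing. When 1 of the 7 arrays was left out at a time, CX3CR1 passed in 1 case, OAS1Y and TREM1 in 2 and ALOX5 in 3. SIRPA and CD8A passed in 4 cases, and MX1, CSF3R and TRAT1 in all 7. In bulk blood, fewer cells of a type and less RNA per cell cannot be told apart. The summed level of the 15 neutrophil markers was 5.27 to 5.30 (log2, scaled) on the probiotic arrays and 5.19 to 5.26 on the 3 LPS arrays, that of the 4 monocyte markers 4.00 to 4.20 and 3.86 to 3.92, that of the 14 T cell markers 4.58 to 4.66 and 4.65 to 4.76, and that of the 8 B cell markers 4.41 to 4.52 and 4.32 to 4.40. The neutrophil, monocyte and B cell sums did not overlap between groups and were lower with LPS. So was the 1 eosinophil and basophil marker, at 3.03 to 3.20 and 2.86 to 2.92. The T cell, natural killer, erythroid and platelet sums overlapped. Over all markers well above background on the 7 arrays, in any place, the neutrophil, monocyte and B cell sums overlapped too. They were 5.61 to 5.77 and 5.52 to 5.64 for 18 neutrophil markers and 5.17 to 5.60 and 5.08 to 5.21 for 6 monocyte markers. For 11 B cell markers they were 4.781 to 5.095 and 4.653 to 4.782. Among single genes the groups did not overlap in 34%. The part of cell composition in the results was not tested.

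Of 13 genes of MHC class II presentation 2 fell, where 16.1% of all genes passed: BOLA-DQA5 (-0.54 ± 0.08, limma adjusted p = 0.0093) and BOLA-DQA1 (-0.48 ± 0.06, limma adjusted p = 0.0069), and 11 did not pass, BOLA-DRB3 (0.03 ± 0.05) and the invariant chain CD74 (-0.08 ± 0.06) among them. BOLA-DQA5 read 14756, 14221, 13528 and 13412 units against 10713, 9917 and 9812, without overlap. A second BOLA-DQA1 probe in the area went the other way (0.51), and the mean of both was 0.02. These alpha chain genes are close copies, and whether their probes share signal was not tested.

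No antimicrobial or granule (6 tested), B cell (8), natural killer and cytotoxic (7), platelet (3), eosinophil and basophil (1) or proteasome gene (16) passed in limma by adjusted p. Of 45 cytosolic ribosomal proteins 3 rose, of 30 oxidative phosphorylation genes 3 rose, and of 11 glycolysis genes 1 rose, HIF1A (0.32 ± 0.05), shares near or under the 16.1% of all genes. Of 11 heat shock proteins, HSPA2 rose (0.51 ± 0.09) and the constitutive chaperone HSPA8 did not pass (-0.01 ± 0.06). Of 16 splicing factors 2 rose and 3 fell, HNRNPM (-0.50 ± 0.07) by the most, while a second HNRNPM probe in the area gave -0.19. Of 14 actin and cytoskeleton genes MYH9 (-0.45 ± 0.08) and PFN1 (-0.33 ± 0.05) fell. Other MYH9 probes in the area gave -0.08 and 0.00. Of 7 erythroid genes 1 fell, and of 10 MHC class I genes 1 rose.

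**Figure D4:**
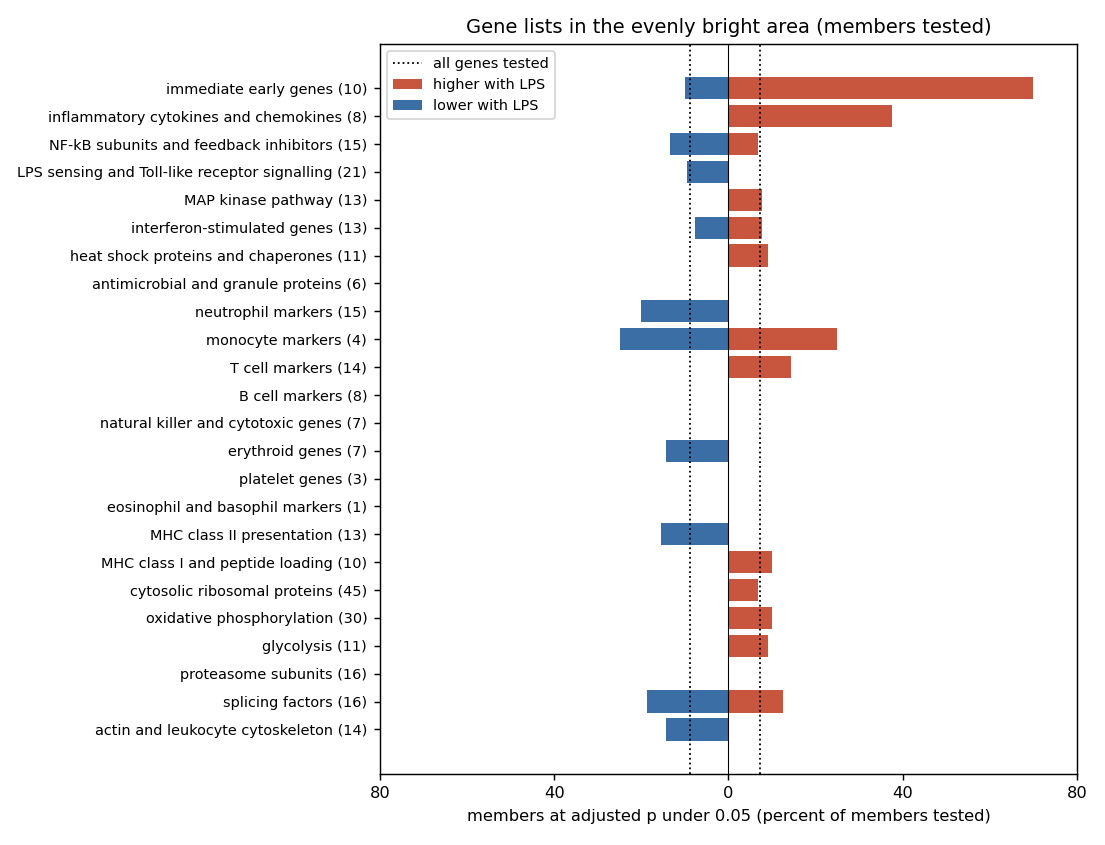
Bars give the percent of tested members (number in brackets) at an adjusted p under 0.05 in the evenly bright area, higher with LPS to the right in red and lower to the left in blue; dotted lines mark the 7.19% and 8.91% of all 6352 genes. Immediate early genes (7 of 10 higher) reach farthest to the right; the 3 of 8 cytokines and chemokines entered only through the LPS arrays.

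The remaining called genes of the evenly bright area are not on any list, and several are not blood genes by name. H1-3, a linker histone, read 75, 91, 98 and 45 units against 356, 339, 371 and 12 (2.18 ± 0.19, limma adjusted p = 0.0033), with its 3 brighter LPS arrays above all probiotic arrays. FOXR2, a forkhead transcription factor, read 360, 435, 254 and 104 against 1687, 1489, 1173 and 1218 units (2.42 ± 0.39, limma adjusted p = 0.011). It was higher on all 4 LPS arrays without any scaling, LPS replicate 4 included. After scaling, LPS replicate 4 lay far above the other LPS arrays in FOXR2 (1.75 against -1.50 to -0.88, log2). The same held for HTR1B (2.05 against -1.89 to -1.27). The serotonin receptor HTR1B read 514, 505, 407 and 388 against 1284, 949, 988 and 1503 units (1.16 ± 0.13, limma adjusted p = 0.0054), again higher on all 4, but a second HTR1B probe in the area gave -0.24, and with each spot scaled to its surroundings the difference was -0.18. SIX6, an eye development factor, rose by 1.58 ± 0.09 on 1 probe (111, 113, 116 and 77 against 326, 363 and 291 units), while another SIX6 probe in the area read 38 to 51 units on the probiotic arrays against 18 to 36 with LPS. CTTN, TFAP2E, FOXE1, BRMS1, NCR3LG1, SLC22A20 and CES1 rose by 1.07 to 1.49. Several of these calls rested on single arrays: NCR3LG1 did not pass when any 1 of the 7 arrays was left out, TFAP2E passed only without probiotic replicate 4, and CES1 only without probiotic replicate 1 or 4. CTTN did not pass without LPS replicate 1 or 3, nor BRMS1 and FOXR2 without LPS replicate 2. GABRR3 was at least 1.80-fold higher, a bound under 2-fold, with most probiotic values at the floor set for low signals (-5.39, log2). Another 3 unnamed transcripts were also called higher. H1-3, FOXE1, SLC22A20 and GABRR3 were not called where a probe had to be well above background on all 7 arrays. They had passed the filter only through the LPS arrays, where they were high. CNKSR1 (-1.01 ± 0.12) and CHAD (-1.05 ± 0.14) were called lower with 3 unnamed transcripts. On LPS replicate 4 the same CHAD probe lay above every probiotic array after scaling (-3.07 against -5.23 to -4.52, log2). With all 8 arrays the CHAD difference was -0.34 (limma adjusted p = 0.86). A second CNKSR1 probe in the area gave -0.37. With single arrays left out GABRR3, CNKSR1 and CHAD passed throughout, with sizes down to 0.87 for GABRR3, -0.91 for CNKSR1 and -0.92 for CHAD. The exonuclease XRN2 fell by 0.98 on the log2 scale (limma adjusted p = 1.4e-04), just under 2-fold, from 1377, 1388, 1320 and 1148 units to 698, 704 and 688. Over 156 genes that passed and had another probe in the area, the other probes had the same sign in 106 (67.9%), against 600 of 1046 (57.4%) over all genes with another probe.

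On all 8 arrays, the comparison as the design sets it, 72 of 8721 genes were called (0.826%), 66 higher (0.757%) and 6 lower (0.0688%), and the median was -0.08. Of the 66, 34 were dim on all probiotic arrays, and of the 6, 1 was dim on all LPS arrays. Those genes passed the filter only through the group where they were high. At an unadjusted p under 0.05 there were 420 genes, and the groups did not overlap in 919 (10.5%). The count was 38, 19 and 17 without probiotic replicates 1, 2 and 3, 75 without probiotic replicate 4 (31 higher and 44 lower), 41 without LPS replicate 2, 251 without LPS replicate 4 (2.49% of 10080, with 209 or 2.07% higher and 42 or 0.417% lower) and 431 of 10787 without both LPS replicate 4 and probiotic replicate 4. By place, 19 of 6551 genes were called in the outer rows (up to row 133 and from row 400) and 96 of 3120 in the middle rows, and without LPS replicate 4 the counts were 208 of 7350 and 155. Among the 72, named genes with a probe well above background on all 8 arrays and no overlap between groups were HECA (5.16 ± 0.45), TMEM201 (4.68 ± 0.70), DYNLL2 (4.29 ± 0.59), LOC618367 (3.78 ± 0.49), CPA5 (2.91 ± 0.45), CYB561D2 (2.67 ± 0.44), PITPNB (2.29 ± 0.39) and GRO1 upward, and LAT (-3.28 ± 0.58) and LTB (-7.02 ± 0.84) downward. HECA, a cell cycle regulator, read 1666, 1139, 1099 and 1377 units against 57188, 26535, 98247 and 5226. LTB, the membrane anchor of lymphotoxin on lymphocytes, read 25274, 20079, 24243 and 4774 against 85, 72, 67 and 85, and LAT, the T cell adaptor, 3500, 3634, 3641 and 3983 against 259, 423, 207 and 152. The groups lay far apart in all of these.

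Most of these calls lay in dim places of the array. The neighbourhood was under 50 units on at least 1 of the 7 arrays at 70 of the 72 called probes, and 1 of the 72 lay in the evenly bright area. Across the 8721 genes the Spearman correlation of a gene's difference with that of its neighbourhood was 0.599, a description over genes that share arrays, against 0.274 in the evenly bright area. HECA and LTB are examples: the neighbourhood median was 19.3 units on the probiotic arrays against 38.3 with LPS for HECA, and 91.6 and 23.2 for LTB. Others lay where it was nearly equal, such as PITPNB (68.8 and 78.2), and at GRO1 it was lower with LPS (491 and 395). Of the 72 genes 6 had a probe in the evenly bright area, and 1 of these, an unnamed transcript that was lower in both, was called there. TMEM201 went from 4.68 to -0.06 (adjusted p = 0.92), CPA5 from 2.91 to -0.34 and LOC618367 from 3.78 to 0.22 (adjusted p = 0.066), each through another probe. How far brightness accounts for the remaining calls was not tested, as they had no probe in that area.

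**Figure D5:**
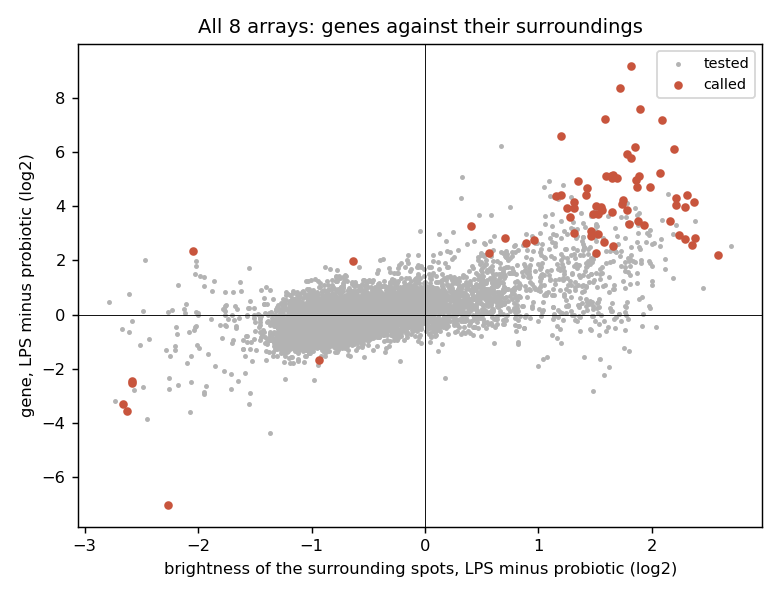
For the 8721 genes tested on all 8 arrays, the difference LPS minus probiotic (log2) is plotted against the same difference of the 75th percentile of the surrounding 15 by 15 spots, with the 72 called genes in red. Most called genes lie at the upper right, where the LPS arrays were brighter in both, with a median surroundings difference of 1.61 against -0.70 over all genes.

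The brightest called genes whose probe was dim on every array of the other group lay in the same places. In scaled spot signal RPL7A was at least 495-fold, RPL5 at least 166-fold, ARHGDIA at least 62.6-fold, PDCD4 at least 59.3-fold and ACTL6B at least 31.6-fold higher with LPS, and the p38 kinase MAPK14 at least 7.31-fold lower. The neighbourhood median differed in the same direction: 22.7 units on the probiotic arrays and 65.5 with LPS for RPL7A, 20.9 and 57.2 for RPL5. It was 12.5 and 60.1 for ACTL6B, and 134 and 20.1 for MAPK14. These are therefore not bounds on the change of a transcript, and the part of brightness in them was not tested. The rising genes passed the filter only through the LPS arrays, and MAPK14 only through the probiotic arrays. Probiotic values of the rising genes sat at the floor (-6.22, log2), so their fits had almost no spread on that side. Among list members RPS27, MAP2K3, HSPE1, GYPC, PSMD2 and HNRNPA2B1 were also called higher, although HSPE1 (-1.56) and HNRNPA2B1 (-1.61) turned negative without probiotic replicate 4. RPL7A and RPS27 encode ribosomal proteins, and of 45 such genes in the evenly bright area none was called. The brightest members of the other lists did not pass on all 8 arrays: MCL1 (-0.76 ± 0.64), NFKBIA (0.69 ± 0.35), IRF5 (-1.07 ± 0.77), IFITM2 (-0.08 ± 0.26), S100A12 (-1.18 ± 0.77), ITGB2 (0.05 ± 0.26), FCN1 (-0.75 ± 0.53), CD79A (0.21 ± 0.45), GNLY (0.40 ± 0.38), F13A1 (-0.08 ± 0.25), ALOX15 (-1.06 ± 0.71), BOLA-DRA (-0.18 ± 0.56), BOLA (-0.41 ± 0.40), ATP5F1B (-0.74 ± 0.77), LDHB (0.28 ± 0.36) and TMSB10 (-0.04 ± 0.25). FOS (0.92 ± 0.39), DUSP1 (0.86 ± 0.33), EGR1 (1.56 ± 1.26), IL1B (-0.69 ± 0.61), IL10 (-0.32 ± 0.76), TLR4 (0.23 ± 0.29) and CD14 (0.40 ± 0.42) did not pass there either.

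Several genes at the centre of the LPS response gave no usable level. Both TNF probes and both IL6 probes, the TNFAIP3 probe and 2 of 3 CXCL8 probes read under 30 units on all 8 arrays, and all but 1 lay in dim places with a neighbourhood of at most 19.6 units on at least 1 of the 7 arrays. The exception, an IL6 probe, read -27 to -4 units where the neighbourhood was at least 39.6. The brightest CXCL8 probe read 288, 211, 241 and 33 units against 162, 256 and 27, also in a dim place. EGR1, an immediate early transcription factor, had 1 probe with a neighbourhood of at least 87.1 units, below the limit, that read 44, 9, 29 and 5 units on the probiotic arrays and 202, 274 and 72 on LPS replicates 1 to 3, and another in the evenly bright area that read 33 to 50 and 32 to 39 units. The third EGR1 probe, used on all 8 arrays and in a dim place, read 340, 289, 285 and 2.68 units against 199, 267, 225 and 891, so that LPS replicates 1 to 3 were below probiotic replicates 1 to 3, the opposite order. These values bear no call.

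Spike-in controls, RNAs added in known amounts, give another scale. In the evenly bright area the 7 spike-ins that could be read were higher by 0.16 to 0.61 (log2) on LPS replicates 1 to 3 than on the probiotic arrays after scaling to the 75th percentile, with SDs between arrays of 0.11 to 0.22 in the probiotic group and 0.01 to 0.08 in the LPS group. Over the 83 spike-in spots readable on all 8 arrays the difference was 0.47, with an SD of 0.09 (n = 4) among probiotic and 0.26 (n = 4) among LPS arrays. Scaling to the spike-ins moved the median of all genes in the evenly bright area to -0.60, and 322 genes were called, 4 higher and 318 lower. The rises above 0.60 kept their sign on that scale, CXCL2, FOS and RGS1 among them, while NFKBIA, ZFP36L2, KLF6, RHOB, THBD, CD8A, TRAT1, HSPA2, MAP3K5, OAS1Y, CX3CR1 and HIF1A, each under 0.60, turned negative. All other directions given here are relative to the bulk of genes on each array.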

How the data were processed

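Deposited values are net spot intensities (signal minus background, scanner units) from Agilent Feature Extraction 10.10.1.1, per the submitters' processing notes, with the scanner's well-above-background calls (a deposited unit of other kind, 0 or 1). A deposited table of log2 group averages by the authors was used as an alternative only. RNA was pooled per group, per the labels. Control spots were left out. On all 8 arrays, each array's 75th percentile over probes well above background on all 8 was set to 1, a floor was set, and log2 values were fitted with limma 3.58.1 in R 4.3.3 (lmFit, eBayes, two-sided, Benjamini-Hochberg). A gene is its brightest probe that was well above background on all arrays of a group. The evenly bright area, its 200 unit limit and the 15 by 15 window were chosen after seeing the data. Members, lists and named genes were chosen with earlier results of these data known. Genes were named by rule: the 15 largest rises and falls among called genes without overlap, the 5 brightest per direction with a dim other group, called or brightest list members, and 12 LPS response genes; evenly bright area genes were named after their values were seen. Replicate numbers did not pair arrays (correlations of deviations -0.24 to 0.33). On simulated data with 200 changed genes, 17% of those changed by 1.5 (log2) and 67% of those changed by 3 were recovered on all 8 arrays (8721 genes). In the evenly bright area (6352 genes) the shares were 96% and 100%. False calls were 1 on all 8 arrays and 2 in the evenly bright area. These shares describe the simulated data only and do not measure how stable the calls on the real arrays are. The number of arrays limits the precision. Probe sequences are the deposited array's; genome positions were not analysed here.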

Additional observations from a re-analysis of the deposited data

Results flagged for a closer look

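Of 161 groups of 4 arrays whose scaled log2 values were checked for a single array far from the others, 31 had one. Chance gives about 1 in 20 for a single group. The groups are genes read on the same arrays and are not independent, so the count cannot be set against that rate. The array was LPS replicate 4 in 15, probiotic replicate 4 in 14, probiotic replicate 1 in 1 and probiotic replicate 2 in 1. The values below are the gap to the nearest array as a share of the group's range, and no cause was tested.

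LPS replicate 4 stood apart from the other LPS arrays in GRO1 (0.849), LTB (0.88), ARHGDIA (0.86), MCL1 (0.833), IRF5 (0.948), S100A12 (0.93), FCN1 (0.943), CD79A (0.857), GNLY (0.911), ALOX15 (0.952), ATP5F1B (0.937), LDHB (0.847), IL1B (0.944), FOS (0.862) and EGR1 (0.952). On all 8 arrays, probiotic replicate 4 stood apart in LTB (0.86), MCL1 (0.866), S100A12 (0.894), CD79A (0.897), BOLA-DRA (0.839), TMSB10 (0.835), FOS (0.898) and EGR1 (0.942), and probiotic replicate 1 in DYNLL2 (0.833). In the evenly bright area probiotic replicate 4 stood apart in CXCL2 (0.853), CCL3 (0.863), IL1B (0.855), RHOB (0.867), the apoptosis inhibitor BIRC3 (0.88) and MAP3K5 (0.851), and probiotic replicate 2 in TLR1 (0.93).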

How the results depend on the processing

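On all 8 arrays the 72 calls became 35 with the scanner's processed signal, 3 with normexp, 5 with the highest floor, 5 where a probe had to be above background on all arrays, 23 without that filter, 19 in the outer rows, 338 with array weights and 30 in a fit of all 16 arrays. Leaving out single arrays gave 17 to 251, leaving out both outlying arrays 431, and the evenly bright area 25. The authors' deposited averages put 5953 of 8721 genes past 2-fold (68.3%), 429 higher and 5524 lower, with no test. Their median over all genes was -1.24, against -0.08 in the fit of all 8 arrays. With that offset, the split cannot be set against that of the 72 calls (66 higher and 6 lower). With the replicate number as a block, limma called 0 genes (407 at an unadjusted p under 0.05), and 29 in the evenly bright area, where the numbers are no pairing of the design. In the evenly bright area the 25 calls became 38 with a limit of 100 units, 48 with each spot scaled to its surroundings, 1 with normexp, 1023 with no fold threshold, 322 with spike-in scaling, and 2 on all 8 arrays over spots bright on all 8. Single arrays left out gave 19 to 29.

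Directions reversed as follows, and the causes were not tested. On all 8 arrays these were TMEM201 (-0.056) and CPA5 (-0.34) in the evenly bright area, LOC618367 in the outer rows (-0.54) and without LPS replicate 3 (-0.85), HSPE1 with no filter (-0.34), without probiotic replicate 4 (-1.56) and without both outlying arrays (-0.84), and HNRNPA2B1 likewise (-0.22, -1.61 and -0.28). With single arrays left out, the highest values were 4.20 for LOC618367, 4.44 for HSPE1 and 2.96 for HNRNPA2B1. Leaving out probiotic replicate 4 (-0.709 points) or LPS replicate 3 (-1.13) turned the share of spots well above background, with a range of -1.13 to 5.41. Under spike-in scaling ZFP36L2 (-0.16), KLF6 (-0.35), THBD (-0.067), RHOB (-0.087), NFKBIA (-0.13), OAS1Y (-0.36), CX3CR1 (-0.36), CD8A (-0.23), TRAT1 (-0.13), HSPA2 (-0.083), MAP3K5 (-0.16) and HIF1A (-0.27) reversed. BOLA-DQA1 reversed as the mean of its probes (0.015) and on all 8 arrays over spots bright on all 8 (0.49), and HTR1B with each spot scaled to its surroundings (-0.18). The spike-in difference kept its sign without any 1 array (0.38 to 0.59). Signal over background limits low genes outside the 12487 evenly bright spots.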
